A study of Oryctolagus cuniculus with 24 samples.

Results

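CSF2, IL4, IL13 and IL9 are cytokine genes that activated helper T cells and other immune cells transcribe, and their transcripts were followed in rabbit peripheral blood mononuclear cells (PBMCs), the mixture of lymphocytes and monocytes that a density gradient separates from blood. They were taken by gene name from a microarray, and are 4 of the 28870 genes measured, read by 12 of its 42089 probes. Cells came from 4 adult females of the New Zealand White breed, here rabbits 1, 2, 4 and 5, and were cultured for 4 h (T4) or 24 h (T24) with buffer alone (mock), with lipopolysaccharide (LPS, 1 µg/mL), or with phorbol myristate acetate (PMA, 10 ng/mL) and ionomycin (1 µg/mL), here PMA-Ionomycin. Each rabbit gave 1 array in each of the 6 groups, so that each group held 4 arrays and the series 24. The study asked how the PBMC transcriptome of the rabbit responds to each stimulation over time. All levels are log2 signals relative to the median of the array, and all adjusted p-values are those of limma over the 28870 genes, with a gene called at an adjusted p under 0.05.

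CSF2 encodes granulocyte-macrophage colony-stimulating factor, which drives the growth and activation of granulocytes, monocytes and macrophages. IL4 and IL13 are the defining cytokines of Th2 helper T cells: both act through receptors that hold the IL4R chain and activate STAT6, and they promote IgE production and the alternative activation of macrophages. IL9 is a growth factor of T cells and mast cells, made by Th2, Th9 and innate lymphoid cells. PMA activates protein kinase C and ionomycin lets calcium into the cell, which together bypass the T cell receptor and activate the NFAT, AP-1 and NF-kB factors, whereas LPS is sensed mainly by cells that carry CD14 and Toll-like receptors, such as monocytes.

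The letters that stand for each gene on the array are given here because the 4 genes were not read with equal redundancy. CSF2 and IL4 were each read by 5 overlapping probes of 60 bases, and the capitals mark the stretch that all 5 probes share. IL13 and IL9 were each read by 1 probe of 60 bases, in lower case throughout, and the IL9 probe was spotted 3 times. Probes are given in the orientation in which the files list them.
CSF2: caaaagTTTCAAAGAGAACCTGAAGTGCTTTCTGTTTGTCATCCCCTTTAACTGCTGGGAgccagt
IL4: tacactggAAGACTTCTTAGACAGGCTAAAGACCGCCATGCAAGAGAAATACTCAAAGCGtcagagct
IL13: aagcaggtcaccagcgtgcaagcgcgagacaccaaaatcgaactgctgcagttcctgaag
IL9: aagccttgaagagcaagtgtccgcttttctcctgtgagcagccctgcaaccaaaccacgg

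The files place 3 of the 4 genes in one stretch of rabbit chromosome 3 (oryCun2), with the CSF2 probes at chr3:15145955-15146020, the IL13 probe at chr3:15691744-15692067 and the IL4 probes at chr3:15711364-15711431. The IL13 interval is longer than its probe, with 264 positions that the probe does not cover. IL13 and IL4 lay 19.3 kb apart, CSF2 and IL4 565 kb apart, and the IL5 probes lay between CSF2 and IL13. The IL9 probe has no position in the files. In the RefSeq gene order of a later rabbit assembly (mOryCun1.1), IL5, RAD50, IL13 and IL4 are the coding genes 6, 7, 8 and 9 counted from CSF2 on the same chromosome, and IL9 is gene 48. A search for shared runs of 20 bases among all probes found no other probe for IL4, IL13 or IL9. It found 1 for CSF2, an added probe with exactly the sequence of a CSF2 probe, which was kept under its own identifier and serves below as a second reading of the same transcript.

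Between 51.4% and 62.3% of the spots of an array were well above background, with no group apart from the others in that range. Every slide of 8 arrays held all 6 groups. Since the arrays read RNA from a mixture, fewer cells of a type and less RNA per cell cannot be told apart.

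CSF2 stood at high levels in the PMA-Ionomycin groups. At T4 its log2 level was 8.74, 7.77, 8.73 and 8.38 in rabbits 1, 2, 4 and 5 with PMA-Ionomycin, and 1.06, 0.66, -0.17 and 0.56 with mock. At T24 the same rabbits gave 5.90, 4.44, 5.15 and 5.36 with PMA-Ionomycin, and -0.74, -0.37, -0.63 and -1.09 with mock. Neither pair of groups overlapped, and the lowest stimulated array lay far above the highest mock array at both times. In unscaled signal the PMA-Ionomycin arrays at T4 read 14507 to 34894 and the mock arrays at T24 48.2 to 67.4, of which 1 of 4 was well above background.

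CSF2 rose by 7.88 ± 0.43 (SE, n = 4 rabbits a group) on the log2 scale at T4, a 235-fold change (limma adjusted p = 5.81e-12), and by 5.92 ± 0.43 at T24, a measured 60.6-fold change (limma adjusted p = 1.38e-10). Since 1 of the 4 mock arrays at T24 was well above background, the size of the rise at T24 is not determined. Single rabbits ranged from 7.11 to 8.90 at T4. The added probe of the same sequence gave 7.96 and 6.11, and the 5 CSF2 probes read singly gave 7.82 to 7.99 at T4 and 5.72 to 6.11 at T24. The background for such calls was broad: 13.5% of all genes were called higher at T4 and 22.1% at T24, while 9.35% and 11.5% were called lower. All 4 cytokine genes were among those called higher at both times. With signals from which the background had been subtracted, the CSF2 change was 8.57 at T4 and 7.93 at T24.

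IL4 was detected in every group. With PMA-Ionomycin at T4 its log2 level was 8.38, 8.32, 8.27 and 8.52 in rabbits 1, 2, 4 and 5, a spread of 0.11 (SD), against 2.24, 0.85, 1.33 and 1.90 with mock. At T24 it was 5.01, 5.48, 5.68 and 5.53 with PMA-Ionomycin, against 0.77, 0.59, 0.95 and 2.05 with mock. The stimulated arrays were all higher than the mock arrays at each time, and rabbit 5 was the highest of the mock arrays at T24. IL4 rose by 6.79 ± 0.39 (SE) at T4, a 111-fold change (limma adjusted p = 1.12e-11), and by 4.33 ± 0.39 at T24, a 20.2-fold change (limma adjusted p = 4.02e-09). The 5 IL4 probes read singly gave 6.75 to 6.84 at T4 and 4.27 to 4.38 at T24.

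IL13 was seen only with PMA-Ionomycin: its probe was not well above background on any of the 16 mock and LPS arrays. At T4 its log2 level was 6.46, 5.75, 6.87 and 5.87 in rabbits 1, 2, 4 and 5 with PMA-Ionomycin, against measured values of -0.95, -1.03, -0.80 and -1.30 with mock. At T24 it was 1.31, 0.92, 1.45 and 0.97 with PMA-Ionomycin, against -1.13, -1.44, -1.03 and -1.22 with mock. The groups did not overlap at either time, but the stimulated arrays at T24 were all far below those at T4. Since the mock arrays give only a bound, set at the lowest signal that an array showed well above background, IL13 was at least 137-fold higher at T4 (limma adjusted p = 1.95e-17) and at least 4.32-fold higher at T24 (limma adjusted p = 1.15e-09). With background-subtracted signals the IL13 change was 10.45 on the log2 scale at T4 and 5.03 at T24, against mock signals still at background.

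IL9 changed least of the 4. With PMA-Ionomycin its log2 level was 0.64, 0.97, 1.00 and 0.43 in rabbits 1, 2, 4 and 5 at T4, and 0.92, 0.55, 1.29 and 1.03 at T24. With mock it was -0.05, -0.14, -0.38 and -0.42 at T4, and -0.05, 0.14, -0.23 and -0.49 at T24. All 8 stimulated arrays exceeded all 8 mock arrays, although the signals were dim, at 110 to 223 against 58.3 to 95.8 before scaling. IL9 rose 2.01-fold at T4 (log2 1.01 ± 0.17 SE, limma adjusted p = 7.1e-05) and 2.15-fold at T24 (log2 1.10 ± 0.17, limma adjusted p = 1.13e-05). With background-subtracted signals the change at T4 was 1.75, and at T24 it was 1.41.

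**Figure D1:**
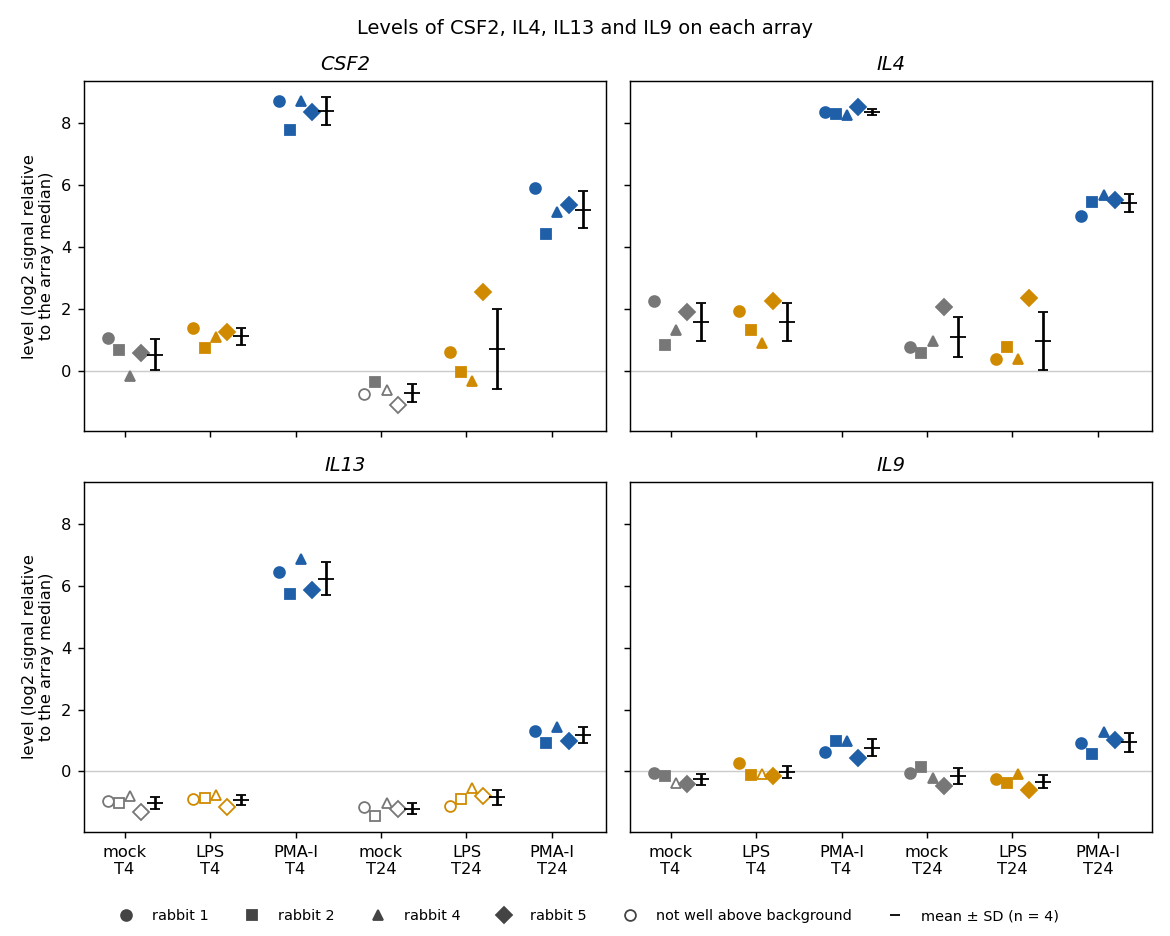
Log2 level of each gene, relative to the array median (vertical axis), on every array of the 6 groups (horizontal axis); points are single rabbits, and open points were not well above background, and lines give the group mean and SD of 4 arrays. CSF2, IL4 and IL13 stand far above the other groups with PMA-Ionomycin at T4 (means 8.41, 8.37 and 6.24) and lower at T24 (5.21, 5.42 and 1.17), whereas IL9 is at 0.76 and 0.95.

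Against LPS in place of mock, the 4 genes were again called higher with PMA-Ionomycin at both times, where 17.7% of all genes were called higher at T4 and 23.6% at T24. At T4 the log2 difference was 7.29 for CSF2, 6.78 for IL4 and 0.78 for IL9, and IL13 was at least 132-fold higher (limma adjusted p = 2.03e-11, 1.36e-11, 0.000934 and 2.73e-17, respectively). At T24 it was 4.51 for CSF2, 4.45 for IL4 and 1.27 for IL9, and IL13 was at least 3.82-fold higher. These comparisons share the PMA-Ionomycin arrays with those against mock.

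The slides gave the same direction. The difference between PMA-Ionomycin and mock at T4, taken within each of the 3 slides, was 7.69 to 8.08 for CSF2, 6.39 to 7.53 for IL4, 6.74 to 7.60 for the measured values of IL13 and 0.65 to 1.41 for IL9. At T24 it was 5.18 to 6.76, 3.50 to 5.02, 2.06 to 2.66 and 0.60 to 1.28 in the same order of genes. No slide turned the sign of any of these differences.

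**Figure D2:**
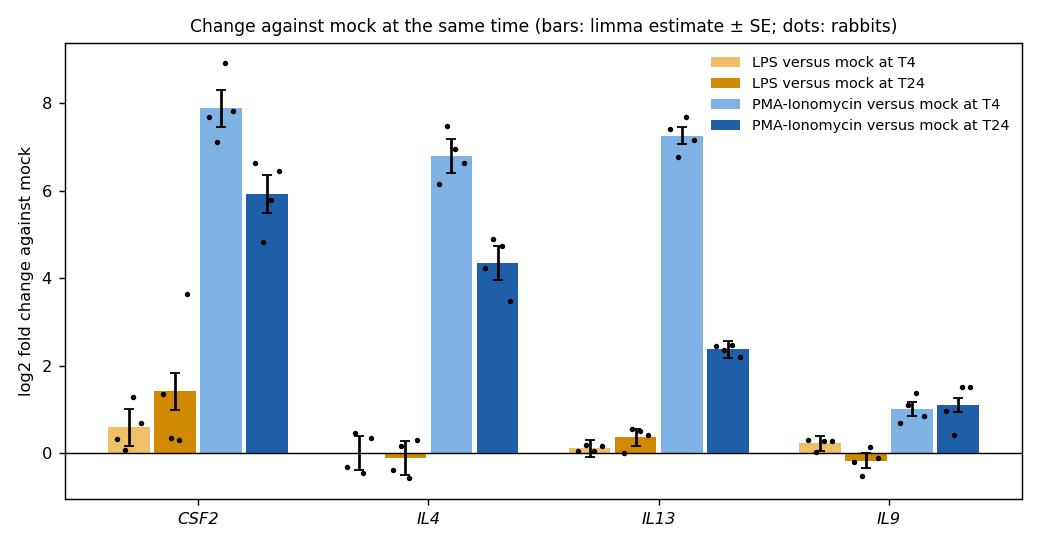
Log2 fold change against mock (axis, with 0 for no change) of CSF2, IL4, IL13 and IL9 for LPS and PMA-Ionomycin at T4 and T24; bars are limma estimates, error lines their SE, and points the differences of the 4 single rabbits. The IL13 bars use measured values of mock arrays that were not well above background, so that for PMA-Ionomycin at T4 the text gives the bound of at least 137-fold. The CSF2 bars at T24 use a mock group with 1 of 4 arrays well above background.

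The next comparison concerned time under PMA-Ionomycin. CSF2 fell by 3.19 on the log2 scale from T4 to T24 (9.14-fold, limma adjusted p = 2.02e-06), IL4 fell by 2.95 (7.71-fold, 1.55e-06) and IL13 fell by 5.07 (33.6-fold, 5.08e-14). Over all genes, 13.4% were called lower at T24. All 4 rabbits showed these falls, and none of the 3 genes had overlapping groups. IL9 differed by 0.19 between the times (limma adjusted p = 0.410), and its groups overlapped.

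Cultures without stimulus also changed with time, so the fall was set against the one in mock. The interaction of PMA-Ionomycin and time, that is the log2 change against mock at T24 minus that at T4, was -4.88 ± 0.28 (SE) for IL13 (limma adjusted p = 6.39e-11), -2.46 ± 0.55 for IL4 (0.00164) and -1.96 ± 0.61 for CSF2 (0.0206). It was 0.09 ± 0.24 for IL9 (0.885). The IL13 value uses measured signals of mock arrays that were not well above background at either time, so that its size is not determined (-5.42 with background-subtracted signals), whereas its fall within PMA-Ionomycin rests on arrays above background. The CSF2 value rests in part on the mock group at T24, where 1 of 4 arrays was well above background. The 3 negative values were called, and over all genes 8.15% were called in that direction. The CSF2 call was lost with background-subtracted signals (-0.64, limma adjusted p = 0.711) and without rabbit 1 (-2.26, 0.0522), rabbit 2 (-1.84, 0.0855) or rabbit 4 (-1.57, 0.162). The calls of IL4 and IL13 were kept in each of these fits.

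The changes of the 4 genes from T4 to T24 were compared with each other within rabbits, a comparison added after the values had been seen. From T4 to T24 with PMA-Ionomycin the log2 change of CSF2 minus that of IL13 was 1.88 ± 0.33 (SD, n = 4 rabbits), and the change of IL4 minus that of IL13 was 2.12 ± 0.48, with the same sign in all 4 rabbits. CSF2 and IL4 differed by -0.24 ± 0.65, with single rabbits from -0.99 to 0.53. With 4 rabbits the exact two-sided sign-flip test cannot go below p = 0.125, which the 5 pairs that involve IL13 or IL9 reached, and over the 6 pairs the adjusted p was 0.15 for those and 0.625 for CSF2 with IL4. Fold changes of genes read by different probes are set side by side here only as changes, not as levels.

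**Figure D3:**
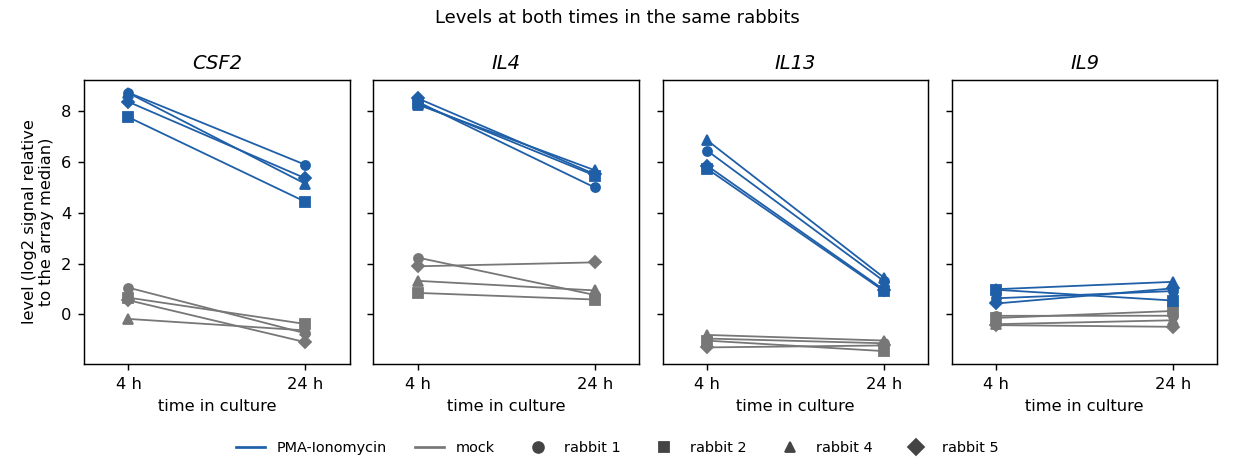
Log2 level relative to the array median (vertical axis) at 4 h and 24 h (horizontal axis) for each rabbit under mock and PMA-Ionomycin, with 1 panel a gene; lines join the arrays of a rabbit. With PMA-Ionomycin the lines of CSF2, IL4 and IL13 go down in all 4 rabbits, by 3.19, 2.95 and 5.07 on average, and those of IL9 lie between 0.43 and 1.29 and go up in 3 rabbits and down in 1.

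LPS gave no call for any of the 4 genes at either time, beside calls for 1.03% of all genes at T4 and for 1.22% at T24. At an unadjusted limma p under 0.05, 0 of the 4 passed at T4 and 1, CSF2, at T24. At T4 the log2 difference from mock was 0.59 ± 0.43 (SE) for CSF2, 0.01 ± 0.39 for IL4 and 0.23 ± 0.17 for IL9 (limma adjusted p = 0.575, 0.989 and 0.583). At T24 it was -0.12 ± 0.39 for IL4 and -0.17 ± 0.17 for IL9 (0.988 and 0.854). The levels of IL4 with LPS were 1.93, 1.31, 0.89 and 2.25 at T4 and 0.38, 0.76, 0.38 and 2.36 at T24, with rabbit 5 again the highest at both times, and they overlapped those with mock. IL9 with LPS lay between -0.14 and 0.26 at T4 and between -0.59 and -0.09 at T24, overlapping mock at both times. For IL13 no fold is given, because neither LPS nor mock arrays were above background.

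CSF2 with LPS at T24 was the uneven case. Its log2 level was 0.62, -0.02, -0.33 and 2.55 in rabbits 1, 2, 4 and 5, all above the mock arrays, against which the rabbits differed by 1.36, 0.35, 0.30 and 3.64. The mean difference of 1.41 ± 0.43 (SE) did not pass the test (limma adjusted p = 0.128), and without rabbit 5 it was 0.67 (0.435). This limma SE draws on the spread of all 6 groups, whereas the SD was 1.29 with LPS and 0.30 with mock at T24. With background-subtracted signals the difference was 3.01 and passed (limma adjusted p = 0.0137). Since 1 of the 4 mock arrays at T24 was well above background, the size of the difference is not determined. The added probe of the same sequence gave 1.48 (limma adjusted p = 0.109). At T4 the levels with LPS were 1.38, 0.74, 1.10 and 1.26, which overlapped mock. The interaction of LPS and time was called by limma for none of the 4 genes, nor did any pass at an unadjusted p under 0.05 (CSF2 0.82, adjusted p = 0.519), where 1.95% of all genes were called.

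In mock cultures CSF2 was lower at T24 than at T4 in 4 of 4 rabbits, by -1.24 ± 0.43 (SE) on the log2 scale, and the groups did not overlap, but the limma adjusted p was 0.063. Since 1 of the 4 mock arrays at T24 was well above background, the size of this difference is not determined. The difference was called with the rabbit as a block (adjusted p = 0.0342), with background-subtracted signals (-2.92, 0.00219) and at the added probe of the same sequence (-1.35, 0.0421). IL4 differed by -0.49 and IL9 by 0.09, and neither was called (limma adjusted p = 0.512 and 0.789). Of all genes, 12.5% were called in this comparison.

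Ordered by mean level, CSF2 ran from PMA-Ionomycin T4 through PMA-Ionomycin T24, LPS T4, LPS T24 and mock T4 to mock T24. In that order LPS T24 overlapped both of its neighbours, and no other neighbours overlapped. IL4 had the PMA-Ionomycin groups on top, T4 above T24, and 4 overlapping groups below, with means of 0.97 to 1.59. IL13 had the same top pair and 4 groups not above background. The PMA-Ionomycin groups of IL9 overlapped each other and lay above the 4 other groups, which overlapped.

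Over the 24 arrays the log2 levels of CSF2 and IL4 correlated with Pearson's r = 0.97, those of CSF2 and IL13 with 0.93 and those of IL4 and IL13 with 0.94, while IL9 gave 0.81, 0.79 and 0.70 with CSF2, IL4 and IL13. These values describe arrays that share the stimulation groups. Among 6283 genes with a symbol and a signal above background throughout at least 1 group, those with the highest r to CSF2 were GNL2, WDR43, IL4, PPRC1 and CDK5R1, with r = 0.97 each. For IL4 they were DDX21, PPRC1, CSF2, METTL13 and MMP10, with the same r of 0.97. GNL2, WDR43 and DDX21 encode nucleolar proteins of ribosome formation, and MMP10 a matrix metalloproteinase. For IL13 they were AREG (r = 0.99), an epidermal growth factor family ligand, CRTAM (0.99), a surface receptor of activated T and NK cells, ACP3, PDLIM5 and EGR2 (0.98 each). For IL9 they were CTLA4 (0.92), the inhibitory receptor of activated T cells, FASLG (0.91), the death ligand of cytotoxic cells, GPATCH4, DCUN1D5 and RBM34 (0.91 each).

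A like pattern did not mean a change of like size. With PMA-Ionomycin at T4 the log2 change was 2.23 for GNL2, 2.36 for DDX21, 6.83 for MMP10, 3.04 for AREG and 5.13 for CRTAM, and at T24 it was 1.59, 1.57, 3.23, 0.96 and 2.32. The 5 genes closest to IL9 each had a larger log2 change at T4 than its 1.01, from 1.22 for DCUN1D5 to 3.50 for FASLG, with 2.53 for CTLA4. After quantile normalization the 5 genes closest to each cytokine gene changed in part: PPRC1, IL4 and CDK5R1 stayed for CSF2, PPRC1, METTL13 and CSF2 for IL4, AREG, CRTAM, ACP3 and EGR2 for IL13, and CTLA4 and RBM34 for IL9.

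Of 9 other cytokines of the Th2 group, 5 were found by name among the probes. With PMA-Ionomycin 2 of 5 were called higher at T4 and 1 at T24, and none was called lower. Of all genes, 13.5% were called higher at T4 and 22.1% at T24, and 9.35% and 11.5% lower. The list's median log2 change was 0.14 and 0.16, beside 0.05 and 0.03 over all genes. At T24 with the other scalings the list's median was -0.043 to 0.15, beside -0.26 to -0.0022 over all genes. IL10, which restrains macrophages and T cells, went from -0.02 ± 0.56 (SD, n = 4) with mock to 5.12 ± 0.74 at T4, a log2 rise of 5.13 (limma adjusted p = 1.97e-06). At T24 it rose by 1.94 (0.0222), a call lost after quantile normalization (1.66, 0.0679) and with normexp background correction before it (1.44, 0.0909), and it was also the single gene of the list called with LPS, at T24, by 4.12 (0.000808). IL33, an alarmin that acts on Th2 and innate lymphoid cells, rose by 1.28 at T4. IL5, the eosinophil growth factor whose gene lies between CSF2 and IL13, was not well above background on any array of the mock and PMA-Ionomycin groups, with 5 probes.

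Of 14 genes that flank these cytokine genes in mammals, 8 were found. With PMA-Ionomycin at T4, 2 of 8 were called higher and 1 lower, and none at T24 (1 lower with background-subtracted signals), with medians of 0.27 and 0.04, the latter -0.28 to -0.04 with the other scalings. IRF1, an interferon-responsive transcription factor, rose by 1.48 (limma adjusted p = 0.00029), P4HA2, a collagen prolyl hydroxylase subunit, by 0.91 (0.0394, a call lost with the deposited log2 table and with background-subtracted signals), and GDF9, an oocyte growth factor, fell by 3.04 (2.84e-06). None was called with LPS. With PMA-Ionomycin the shares over all genes were 13.5% higher and 9.35% lower at T4, and 22.1% and 11.5% at T24.

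Of 9 receptor chains for the 4 cytokines and their close relatives, 7 were found, and with PMA-Ionomycin none was called higher, 1 was called lower at T4 and 4 at T24, with medians of -0.12 and -1.24. With background-subtracted signals 3 were called lower at T4. Of all genes, 13.5% and 22.1% were called higher at T4 and T24, and 9.35% and 11.5% lower. CSF2RB, the signalling chain of the CSF2 receptor, fell by 1.36 at T4 (limma adjusted p = 0.00114) and by 1.24 at T24 (0.0016). At T24 IL3RA fell by 2.20, IL2RG, the common gamma chain that IL4 and IL9 use, by 1.89, and IL13RA1 by 1.37. IL4R was at 4.74 ± 0.39 (SD) with mock and 4.91 ± 0.55 with PMA-Ionomycin at T4, a difference of 0.17 that was not called, nor was the 0.29 at T24. LPS gave no call in this list. Monocyte markers, given below, were called lower in the same comparisons (5 of 8 at T4 and 8 of 8 at T24), and their part in the receptor values was not tested.

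Below the receptors, 11 of 16 signalling genes were found, with 2 called higher and 3 lower with PMA-Ionomycin at T4 and the same numbers at T24, with medians of -0.03 and -0.07, and none with LPS. With the other scalings 3 to 5 were called lower at T4, and 1 to 2 higher at T24. The shares over all genes were 13.5% higher and 9.35% lower at T4, and 22.1% and 11.5% at T24. STAT5A, which CSF2 and IL9 activate, rose by 1.74 at T4 and 0.91 at T24, and the inhibitor SOCS3 rose by 2.14 at T4. STAT6, the factor below IL4 and IL13, fell by 0.99 at T4 (limma adjusted p = 0.00206), and the kinase JAK1 fell by 0.79. GATA3, the factor that defines Th2 cells, was dim, at -0.07 ± 0.09 (SD) with mock and -0.14 ± 0.14 with PMA-Ionomycin at T4, and was not called at either time.

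Of 33 transcription factors of Th2, Th9 and other activated T cells, 21 were found. At T4 with PMA-Ionomycin 13 of 21 were called higher and 2 lower, with a median of 1.15, where 13.5% of all genes were called higher and 9.35% lower. BATF, an AP-1 factor of T helper cells, rose by 3.12 (limma adjusted p = 1.47e-08), NFIL3 by 2.78, EGR1 by 2.33, EGR2 by 2.08, IRF4, a factor that Th2 and Th9 cells need, by 2.07, and FOS by 1.81. At T24 7 were called higher and 3 lower, with a median of 0.17, where 22.1% of all genes were called higher and 11.5% lower. With the other 4 ways of scaling 5 of the list were called higher and 3 to 6 lower at T24. BATF kept a rise of 2.91 at T24, whereas EGR1 was at 0.10 and FOS at 0.17, not called. SPI1, a myeloid factor that Th9 cells also use, fell by 1.30 at T4 and by 1.76 at T24, and was the single gene of the list called with LPS (-1.13 at T4, adjusted p = 0.0253), a call lost with background-subtracted signals (-1.01, 0.109) and with normexp (-0.94, 0.0556).

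**Figure D4:**
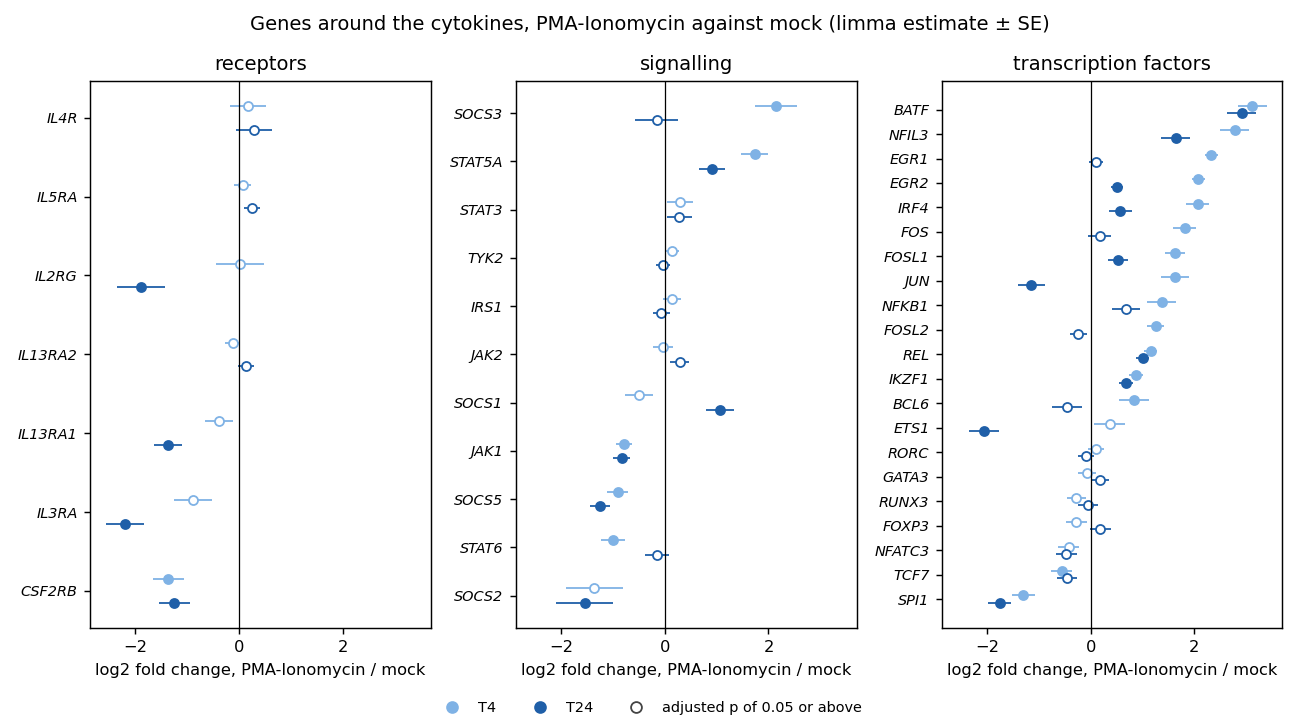
Log2 fold change against mock with PMA-Ionomycin (horizontal axis) at T4 and T24 for the genes found of the lists of receptors, signalling genes and transcription factors, 1 gene a row; points are limma estimates, lines their SE, and filled points passed the adjusted p threshold of 0.05. The transcription factors lie mostly to the right at T4 (median 1.15) and the receptors to the left at T24 (median -1.24).

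Among 28 genes described as targets of IL4 and IL13 through STAT6, 16 were found, with 2 called higher at T4 and 4 higher and 2 lower at T24, shares near those of all genes (13.5% higher at T4, 22.1% higher and 11.5% lower at T24). The list's median log2 change was 0.21 at T4 and -0.16 at T24. TGM2, a transglutaminase of alternatively activated macrophages, rose by 2.49 at T4 (limma adjusted p = 3.35e-09) and was at least 2.63-fold higher at T24. IL1R2, the decoy receptor of IL1, fell by 3.90 at T24, and the ligand CD274 fell by 1.15. Across the other scalings 2 to 4 of the list were called higher and 3 to 5 lower at T24. Among 16 targets of CSF2 in myeloid cells, 12 were found, with 5 called higher and 2 lower at T4, and 5 higher and 4 lower at T24. CCL2, a chemokine for monocytes, rose by 2.88 at T4 and 2.47 at T24, OSM by 2.60 at T4, and the kinase PIM1 by 1.04, and BCL2L1, a survival factor, was at least 4.60-fold higher at T4. SPI1 and CSF1R fell at T4. At T24 2 to 4 were called higher with the other scalings, and MCL1, called at 0.56, was at -0.012 after quantile normalization. The monocyte markers below were called lower in the same comparisons, and their part in these values was not tested. With LPS 3 of 12 were called lower at T4 (SPI1, ITGAX and CSF1R), and 0 to 1 with the other scalings.

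Receptors that mark Th2 cells and type 2 innate lymphoid cells were near background: 7 of 9 were found, and 1 of 7 was well above background on all arrays of a group. None was called higher with PMA-Ionomycin, but 1 was at T4 after quantile normalization, with and without normexp. At T4 1 of 7 was called lower and at T24 2 of 7, IL1RL1 and CCR3, where 3 were with background-subtracted signals and with the deposited table. Of all genes, 9.35% were called lower at T4 and 11.5% at T24, and 13.5% and 22.1% higher. IL1RL1, the receptor of IL33, fell by 1.05 at T4 (limma adjusted p = 0.000125) and was at least 2.24-fold lower at T24.

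Markers of the cell types that a PBMC preparation holds moved with the stimulation, and their part in the cytokine values was not tested. Set beside each count, 13.5% of all genes were called higher and 9.35% lower with PMA-Ionomycin at T4, and 22.1% and 11.5% at T24. Of 15 T cell markers 12 were found, and CD3D, CD3E and CD3G were not found by name. With PMA-Ionomycin 1 was called higher at T4 (CD28, at least 2.42-fold) and 1 higher and 3 lower at T24. The call of the higher one, CD5, was lost with 3 of the other 4 scalings, and 1 of the 3 lower ones, CD4, was not well above background on any array of either group. The summed T cell signal of an array was 25.5 to 39.2 times the array median with mock and 23.4 to 37.6 times with PMA-Ionomycin at T4. At T24 it was 18.8 to 26.8 times with mock and 20.8 to 24.0 times with PMA-Ionomycin, so that the ranges overlapped at both times.

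Of 12 monocyte markers 8 were found. With PMA-Ionomycin 5 of 8 were called lower at T4 and 8 of 8 at T24, where 9.35% and 11.5% of all genes were. CD14 fell by 3.01 at T4 and by 3.27 at T24. The study itself lists CD14 as not differentially expressed with PMA-Ionomycin at either time, by array and by quantitative PCR. The summed monocyte signal, in the same unit, was 366 to 574 with mock and 87.5 to 183 with PMA-Ionomycin at T4, and 435 to 2496 against 73.0 to 141 at T24, without overlap. With LPS 2 of 8 were called lower at T4, and none with the other scalings, and 1 at T24. Of 10 B cell markers 7 were found, with 1 called higher and 3 lower at each time (4 to 5 lower at T4 with the other scalings), and of 8 NK cell markers only PRF1 was found, at -0.76 and 0.96.

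Of 14 markers of mast cells, basophils and eosinophils, cells that also make IL4 and IL13, 7 were found. HDC, the enzyme of histamine synthesis, rose by 3.62 with PMA-Ionomycin at T4 (limma adjusted p = 5.13e-07) and by 1.34 at T24, from 3.47 ± 0.64 (SD) and 0.95 ± 0.69 with mock. MS4A2, a chain of the IgE receptor, fell by 1.68 at T4 (2.89e-06), and was at least 10.98-fold lower at T24 (1.54e-11). The summed signal of the list was 17.4 to 29.5 with mock and 85.3 to 230 with PMA-Ionomycin at T4, and 11.8 to 26.4 against 9.93 to 12.4 at T24. At T4 with PMA-Ionomycin HDC alone made up 90.7% to 96.4% of that sum. The list's median log2 change was 0.07 at T4 and -0.41 at T24. Of its 7 genes, 2 were called higher and 1 lower at T4 (13.5% and 9.35% of all genes), and 1 higher and 2 lower at T24 (22.1% and 11.5%). With the other scalings 1 to 3 were called higher at T4, and 0 to 1 higher and 2 to 3 lower at T24, where the call of HDC was lost with normexp (0.98, adjusted p = 0.0645).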

How the data were processed

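RNA from 24 PBMC cultures was labelled with Cy3 and hybridised to 1-colour Agilent rabbit arrays, 1 culture an array, on 3 slides. Per the file headers, the authors extracted spot intensity with Agilent Feature Extraction 10.7.3.1. The deposited log2 table holds log2 median signal minus the mean of each array (column medians -1.11 to -0.81), as a match with the scanner values showed. Groups and rabbit numbers came from the sample labels.

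Here log2 of the median signal of the 61657 non-control spots was centred on the median of each array, spots marked as outliers were left out, and spots were averaged to 42089 probes and these to 28870 genes, 9506 of them with a symbol. Probes were named by accession (11506), gene number (8929), the list of added genes (460) or gene name (66 and 78); 21050 kept their identifier. The median signal contains local background. A gene was well above background on an array where more than 50% of its spots, outliers left out, were marked so. A gene not so on any array of a group has only a bound there. Group means were fitted with lmFit and eBayes (limma 3.58.1, R 4.3.3) over all arrays, and p-values adjusted by Benjamini-Hochberg. Each SE of a difference comes from this fit, which pools the spread of all 6 groups. Two-sided exact sign-flip tests were run in the same R. On simulated data for PMA-Ionomycin against mock at T4, with 200 of 28755 genes changed, 79% were recovered at a log2 change of 1 and 97% at 2, and 4.35% of calls were false. The simulated noise was independent between arrays, so these rates do not cover the correlation within rabbits given below.

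The median correlation of deviations from group means was 0.23 over 60 pairs of arrays from one animal and -0.07 over 180 pairs from different animals; the pairing comes from the labels, since each rabbit gave cells to all groups. The genes named are CSF2, IL4, IL13 and IL9, genes of fixed lists, and for each of the 4 the 5 genes with the highest r. The 4 genes and the lists were chosen with earlier results of these data known. Alternatives were 4 other ways of scaling (quantile; background-subtracted processed signal over the 75th percentile; normexp with offset 50, then quantile; the deposited table), a filter on dim probes, outlier spots kept, fits on the arrays compared, a block for rabbit or for slide, values within slides, single probes, and each rabbit left out. Promoter and protein sequences were not analysed here. A gene of the lists is not reported here and was left out of their counts.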

Additional observations from a re-analysis of the deposited data

Results flagged for a closer look

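The change with PMA-Ionomycin against mock differed between T4 and T24 by the test of the interaction in limma for 3 of the 4 genes: by -1.96 for CSF2, -2.46 for IL4 and -4.88 for IL13 on the log2 scale. The IL13 value was taken against mock arrays that were not well above background, so that its size is not determined. The CSF2 call was lost with background-subtracted signals (-0.64, limma adjusted p = 0.711) and without rabbit 1, rabbit 2 or rabbit 4. In the CSF2 mock group at T24, 1 of 4 arrays was well above background. IL9 with LPS at T4 had 1 array apart from the other 3, that of rabbit 1, with a log2 level of 0.26. This was 1 of 24 sets of 4 arrays examined (Dixon's criterion), of which chance marks about 1 in 20.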

How the results depend on the processing

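The calls of the 4 genes with PMA-Ionomycin against mock and against LPS kept their direction and side of the threshold under every alternative with a test, and their direction within slides, as did the falls of CSF2, IL4 and IL13 from T4 to T24. Of the interactions of PMA-Ionomycin and time, that of CSF2 was not called with processed signals (-0.64) and ran from -2.26 to -1.57 without single rabbits, with the call kept without rabbit 5. That of IL9, not called, was -0.071 after quantile normalization, -0.070 after normexp and quantile normalization, -0.34 with processed signals, and -0.095 to 0.36 without single rabbits. Processed signals also gave 3.01 for CSF2 with LPS at T24 and -2.92 for CSF2 in mock with time, both called, so that 1 of the 4 genes was called in each, and -0.040 for IL9 with PMA-Ionomycin from T4 to T24. The mock change of CSF2, -1.24, was called without dim probes, on the mock arrays alone and with the rabbit as a block (1 of 4 genes each), and at its lowest single probe (-1.36). The block changed no other call of the 4 genes.

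Among differences that were not called, IL13 with LPS at T4 was -0.029 after quantile normalization and -0.055 with normexp, between groups not above background, so that neither its size nor its sign is determined, and IL4 with LPS was -0.13 to 0.17 at T4 and -0.26 to 0.032 at T24 without single rabbits, and -0.038 at its lowest single probe at T4. Within slides, IL4 with LPS was -0.90 and 1.24 (T4, slides 2 and 3) and -1.12 and 0.79 (T24, slides 1 and 2), CSF2 0.042 and IL13, at background, 0.92 (T24, slide 3). The interaction of LPS and time was -0.44 (slide 1) and 0.91 (slide 3) for IL13, again at background, 1.69 (slide 2) and -1.45 (slide 3) for IL4, and -0.61 (slide 3) for CSF2. Against mock, PMA-Ionomycin gave 1.41 (slide 1) and 0.65 (slide 2) for IL9 at T4, 0.60 (slide 2) at T24, and 6.74 (slide 2) for IL13 at T4. Against LPS it gave 7.63 for IL4 and 6.62 for IL13 (T4, slide 2), 2.44 for IL13 (T24, slide 1), and 3.18 and 5.59 for CSF2 (T24, slides 2 and 3). The IL13 values against mock and LPS use measured signals of arrays not well above background, so that their size is not determined. The causes were not tested.

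Over all genes, the share of calls that were higher was 59.0% with PMA-Ionomycin against mock at T4 (47.1% to 50.6% with the other scalings) and 65.8% at T24 (46.3% to 53.0%), 66.2% against LPS at T4 (39.1% to 52.7%) and 65.4% at T24 (47.9% to 53.3%), 60.3% for PMA-Ionomycin with time (47.0% to 53.0%), 63.8% for its interaction (52.7% to 57.4%), 59.1% for mock with time (48.9% to 60.0%), 5.41% with LPS at T4 (9.86% to 25.7%) and 87.7% for its interaction with time (68.8% to 83.3%). The calls lower with PMA-Ionomycin at T24, 3317, were 5421 with processed signals and 5110 with the deposited table; those lower with time, 3863, were 5805 with the deposited table and 2460 without rabbit 4; and those of the negative interaction, 2354, were 1462 without rabbit 4. LPS called 16 genes higher and 280 lower at T4, where a rabbit block gave 86 and 1145, quantile normalization 25 and 91, normexp 27 and 78, processed signals 1 and 7, and the deposited log2 values 7 and 64. On the arrays compared alone limma gave 0 and 0, with 3526 genes at an unadjusted p under 0.05. Without single rabbits it gave 0 to 13 and 0 to 110. At T24 LPS called 184 and 168, the rabbit block 413 and 336, the arrays alone 22 and 25, and fits without single rabbits 49 to 236 and 36 to 375. The interaction of LPS and time had 493 and 69 calls, with 1476 and 191 under the rabbit block, 121 and 55 with processed signals, and 2 to 348 and 5 to 55 without single rabbits. With 4 rabbits a group, signal near background limits what can be said of IL9, of IL13 outside PMA-Ionomycin, and of CSF2 wherever its mock group at T24 enters.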
